A study of Arabidopsis thaliana with 36 samples.

Results

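The members described here are 107 probe sets of the ATH1 array, of 22746 that are not controls, selected on their change between day 0 and day 7 of long days. A probe set was a member where log2(signal + 16), averaged over 3 arrays per line and day, was higher at day 7 than at day 0 by at least 0.9 in both lines that carry a mutant FLC, and by less than 0.3 in the line with a functional FLC. They were thus chosen by the measured values of days 0 and 7, and every value that involves those days is a description with no test. The arrays of days 3 and 5 took no part in the choice, and all tests below compare those arrays. Their errors come from the spread within groups over all 36 arrays, those of days 0 and 7 included. Of the 107 members, 43 have 1 named gene, 3 have several genes and 61 have no name in the annotation used, and these last are given by their identifier.

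Apical regions of soil-grown Arabidopsis thaliana were sampled at 23 °C, in plants moved from short days to long days, after 0, 3, 5 and 7 long days. One line, FRI-Sf-2 in Col, is written FRI here, and its FRI allele stems from accession Sf-2 while its FLC is functional. A second line, written FRI flc-3 (in the labels "FLC-3", then "IN FRI-SF-2 IN COL"), combines that FRI allele with flc-3, an FLC allele made by fast neutrons. The third line, FLC-3, is written flc-3 and has this mutant allele without FRI of Sf-2. All are in Col or Col-0. FRI flc-3 is thus set against FRI for the FLC allele as labelled, while flc-3 and FRI differ at both loci. The labels describe both mutant lines as early flowering. The stage label was vegetative throughout in FRI, and transition in FRI flc-3 after day 0. In flc-3 the label was transition on days 3 and 5, but at day 7 it was transition for 1 array and vegetative for 2. Each of the 12 groups has 3 arrays, and the labels do not say whether these came from separate pools of plants, so a p-value rests on the spread among these arrays, which may be technical.

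FLC is a MADS-box transcription factor that represses flowering, and FRI is an activator of FLC transcription. FLC represses integrator genes of flowering such as FT and SOC1, which long days activate through the photoperiod pathway. When this repression is lacking, long days turn the shoot apex from making leaves to making flowers.

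FLC itself was not analysed here, so the labels were not checked against it. The deposited values were MAS5 signal intensities. Their median ran from 40.4 to 43.1 over the 36 arrays, and the correlation between replicates on the log2 scale lay between 0.989 and 0.996, with the lowest values at FRI flc-3 day 0 replicate 3. Without that array 107 probe sets met the same rule, and 104 of them were members. The number of arrays limits the precision. Of 16 shoot meristem genes fixed for a check of the tissue, 2 were matched to a probe set with 1 named gene, CLV3 and LAS. Genes of the fixed lists are called measured here only where such a match existed. Of all probe sets that are not controls, 8730 had no name, and other list genes may be among them. CLV3, a signal peptide of meristem stem cells, had a mean signal of 12.3, which is under the average 40th percentile of the arrays of 22.4. LAS, a regulator of axillary meristems, had a mean signal of 31.3.

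By the rule, 332 probe sets reached the day 7 threshold in both flc-3 lines, and 107 of them stayed below 0.3 in FRI. The day 7 minus day 0 difference over the members had a median of 1.30 in FRI flc-3, with a range from 0.90 to 4.33. In flc-3 the median was 1.28, with a range from 0.91 to 4.36, and in FRI it was 0.10, with a range from -0.99 to 0.29. Just inside the threshold for FRI lay AT1G78020 at 0.292 and AT3G53400 at 0.286, and just outside it lay AT1G75170 at 0.3025 and AT5G51610 at 0.3026. Just inside the threshold for FRI flc-3 lay 261137_at at 0.903, and just outside it lay JKD, a zinc-finger factor known from root patterning, at 0.898. For flc-3 the nearest probe sets were ALN, allantoinase of ureide breakdown, at 0.907 inside and 263239_at at 0.887 outside. The limits thus cut through a continuous range of values.

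Most members were dim at day 0 in every line. The median signal of all members on single arrays was 13.8 to 14.3 in FRI, 13.9 to 15.9 in FRI flc-3 and 12.6 to 14.1 in flc-3 at day 0. At day 3 it was 13.1 to 14.5 in FRI, 20.0 to 21.6 in FRI flc-3 and 20.3 to 22.7 in flc-3. At day 5 it was 16.8 to 19.4 in FRI, 32.3 to 34.1 in FRI flc-3 and 34.2 to 36.3 in flc-3. At days 3 and 5, each array of either flc-3 line had a higher member median than each FRI array of the same day. At day 7, where the rule sets the lines apart, the medians were 14.7 to 15.8 in FRI, 73.1 to 79.1 in FRI flc-3 and 76.1 to 77.1 in flc-3. The array of flc-3 day 7 labelled transition had a member median of 76.1, and the 2 labelled vegetative had 77.1 and 76.7. At day 0, between 65 and 67 members per line had a mean signal under 22.4, against 2 in FRI flc-3, 4 in flc-3 and 63 in FRI at day 7. Since the offset of 16 compresses differences between dim values, differences of such members are understated on this scale.

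**Figure D1:**
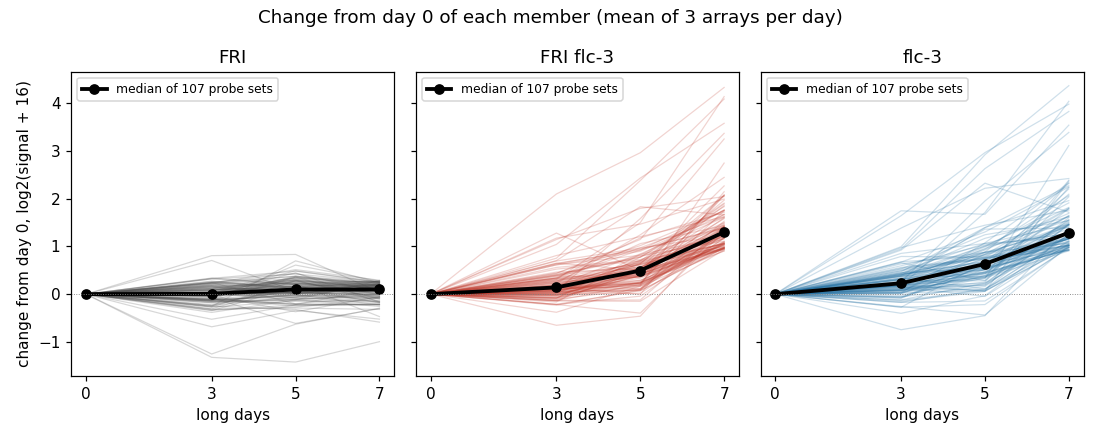
Change of log2(signal + 16) from day 0 (vertical axis) against long days (horizontal axis) for each of the 107 members, as means of 3 arrays per line and day, with the member median in black. The medians reach 0.14, 0.49 and 1.30 at days 3, 5 and 7 in FRI flc-3 and 0.23, 0.63 and 1.28 in flc-3, while the median of FRI stays between 0.01 and 0.10, and day 7 values follow from the rule.

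Most of the change lay in the last days of the course. The shares below use the day 0 and day 7 values on which the rule selected, so they are shaped by that choice. At day 3 the members had reached a median of 10.6% of their own day 7 change in FRI flc-3, and the median was 15.8% in flc-3. At day 5 these medians were 37.0% and 46.1%. The members were unlike each other in this respect. At day 5, 34 members for FRI flc-3 and 46 members for flc-3 had reached at least 50% of their day 7 change, while 33 and 26 had reached under 25%. In both flc-3 lines 106 of the 107 members had their highest mean at day 7, which the rule favours. The exception in each line was 250869_at, singled out for being so. In FRI flc-3 its day 5 signals were 102, 125 and 126, and those of day 7 were 115, 98.1 and 94.8. In flc-3 the day 5 signals were 159, 144 and 168 and those of day 7 were 103, 88.2 and 101, so that there the 2 days did not overlap.

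At day 3, 16 of the 107 members were called higher in FRI flc-3 than in FRI and 2 were called lower. Called means an adjusted p under 0.05 in limma, with Benjamini-Hochberg adjustment over all 22746 probe sets. The share of members called higher was 15.0%, where 0.646% of all probe sets were called higher and 0.813% lower. The median difference over the members was 0.13, against 0.01 over all probe sets, and 80 members lay above 0. In flc-3 against FRI, 16 members were called higher at day 3 and 1 lower, where 0.69% of all probe sets were called higher and 0.396% lower. The median difference was 0.18, and 85 members lay above 0. Both comparisons use the same FRI arrays and are given side by side only. With the spread taken from only the arrays compared, 8 members were called higher in each of these comparisons in place of 16.

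At day 5 more members stood apart. In FRI flc-3 against FRI, 49 members (45.8%) were called higher and 4 lower, where 3.23% of all probe sets were called higher and 4.68% lower. The differences had a median of 0.39 and ran from -0.63 to 2.67, and 93 members lay above 0. In flc-3 against FRI, 66 members (61.7%) were called higher and 3 lower, where 6.06% of all probe sets were called higher and 6.97% lower. Here the median was 0.44, the range was -0.77 to 2.78, and 95 members lay above 0. With the spread taken from only the arrays compared, 37 and 56 members were called higher in place of 49 and 66. In bulk tissue, more cells of a type and more RNA per cell cannot be told apart.

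**Figure D2:**
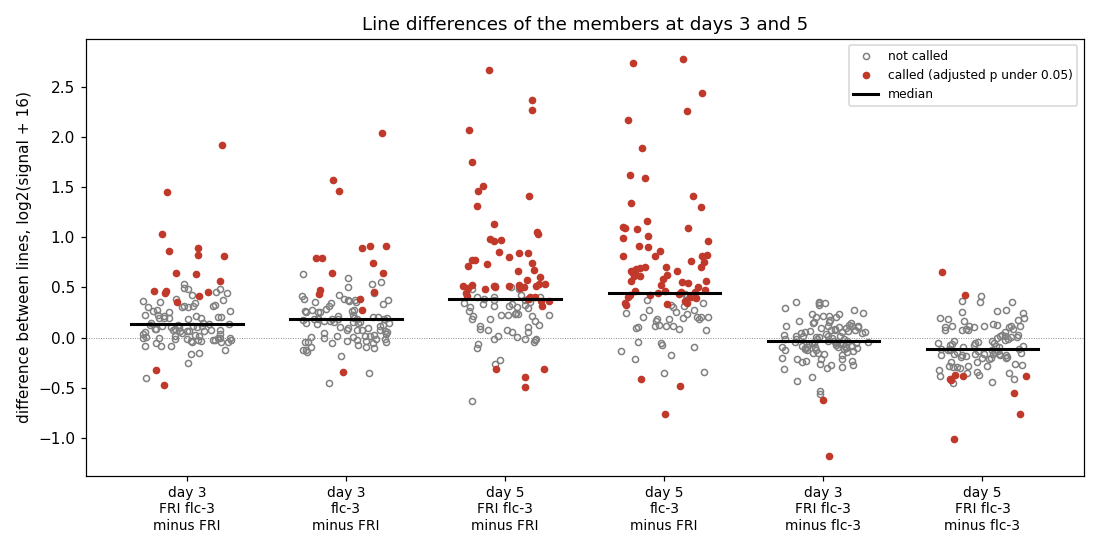
Difference between lines in log2(signal + 16) at days 3 and 5 (vertical axis) for each of the 107 members, with called members filled and medians as bars. The medians against FRI are 0.13 and 0.18 at day 3 and 0.39 and 0.44 at day 5, and those between FRI flc-3 and flc-3 are -0.03 and -0.11.

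The named members of largest day 7 change included enzymes of terpene and surface lipid synthesis. AT5G44630, on chromosome 5, encodes a sesquiterpene synthase known from flowers. Its signals at day 3 were 3.76, 6.50 and 2.02 on the FRI arrays, 28.4, 25.2 and 21.7 in FRI flc-3 and 19.6, 25.0 and 20.8 in flc-3. At day 5 they were 10.7, 1.78 and 7.22 on the FRI arrays, 92.5, 92.1 and 89.2 in FRI flc-3 and 103, 102 and 110 in flc-3. Neither flc-3 line overlapped FRI on either day. The day 3 difference from FRI was 1.03 ± 0.15 (SE, n = 3 arrays per group here and below) in FRI flc-3 (limma adjusted p = 4.1e-05) and 0.92 in flc-3 (adjusted p = 2.9e-04). At day 5 it was 2.27 ± 0.15 (adjusted p = 1.0e-12) and 2.44 (adjusted p = 2.5e-13). The other terpene synthase measured of the 7 fixed, AT3G25810, was no member and had day 5 differences of -0.15 (adjusted p = 0.70) and -0.20 (adjusted p = 0.45).

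WSD1, a wax ester synthase of stem surface wax, had day 3 signals of 13.2, 5.55 and 15.3 on the FRI arrays, 27.0, 21.8 and 23.5 in FRI flc-3 and 18.4, 17.0 and 19.9 in flc-3. At day 5 these were 11.2, 5.81 and 9.14 on the FRI arrays, 58.9, 39.5 and 51.5 in FRI flc-3 and 89.5, 100 and 95.5 in flc-3. No arrays overlapped between the 3 lines at day 5. The day 5 differences from FRI were 1.41 ± 0.13 in FRI flc-3 (adjusted p = 4.5e-09) and 2.17 ± 0.13 in flc-3 (adjusted p = 4.3e-13). FRI flc-3 lay below flc-3 at day 5 by 0.76 on the log2 scale (-0.76 ± 0.13, adjusted p = 1.0e-03). At day 3, FRI flc-3 was higher than FRI by 0.57 (adjusted p = 0.022), and the difference of flc-3 from FRI was 0.35 (adjusted p = 0.34). The day 3 call of WSD1 was lost without FRI replicate 2 (0.40, adjusted p = 0.24), FRI flc-3 replicate 1 (0.52, adjusted p = 0.12) or FRI flc-3 replicate 3 (0.58, adjusted p = 0.064).

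AT1G02190, a homologue of the wax gene CER1, was already apart between lines at day 0, with signals of 5.08, 2.65 and 3.34 on the FRI arrays, 11.6, 15.9 and 11.6 in FRI flc-3 and 9.76, 13.6 and 7.74 in flc-3. These day 0 differences of 0.56 and 0.42 from FRI were among the highest of the members, but all 9 signals lay under 22.4. At day 5 the signals were 7.51, 9.52 and 3.66 on the FRI arrays, 27.5, 26.8 and 20.4 in FRI flc-3 and 30.3, 32.5 and 34.1 in flc-3. The day 5 differences were 0.84 ± 0.10 (adjusted p = 4.4e-07) and 1.08 ± 0.10 (adjusted p = 4.1e-09), and those of day 3 were 0.45 (adjusted p = 0.015) and 0.46 (adjusted p = 0.014). Both day 3 calls of AT1G02190 were lost without FRI replicate 2 (adjusted p = 0.11 and 0.12). The first was also lost without FRI flc-3 replicate 2 (adjusted p = 0.13), and the second without flc-3 replicate 1 or 2 (adjusted p = 0.057 and 0.094). WSD1 and AT1G02190 were 2 of the 3 measured genes of a list of 38 for the cuticle and surface wax. The third measured gene, SHN3, an activator of wax and cutin genes, had a mean signal of 4.43 and day 5 differences of -0.02 (adjusted p = 0.97) and -0.11 (adjusted p = 0.69).

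**Figure D3:**
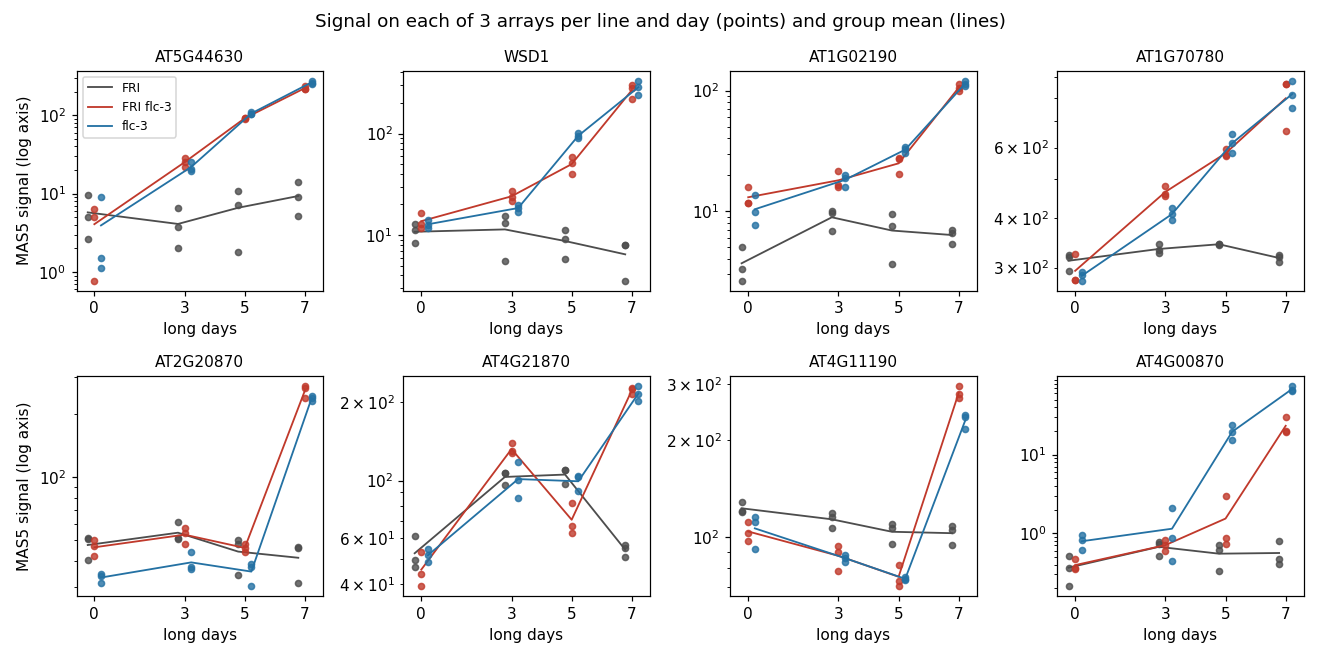
MAS5 signal (vertical axis, log scale) against long days (horizontal axis) on each of 3 arrays per line and day (points), with group means (lines), for 8 members. At day 5, AT5G44630, WSD1, AT1G02190 and AT1G70780 have both flc-3 lines above FRI, AT2G20870 has day 5 means of 44.2, 46.0 and 35.5 in FRI, FRI flc-3 and flc-3, and AT4G11190 has both flc-3 lines below FRI.

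Among the other enzymes, UGT84A1, a glucosyltransferase of hydroxycinnamic acids, had day 5 signals of 0.887, 2.21 and 8.91 on the FRI arrays, 10.5, 19.6 and 22.3 in FRI flc-3 and 34.0, 25.4 and 20.1 in flc-3. Both flc-3 lines lay above FRI, by 0.75 (adjusted p = 0.0015) and 1.09 (adjusted p = 8.8e-06). UGT71C3, another glycosyltransferase of that family, was higher in flc-3 by 0.46 (adjusted p = 0.022), and its difference in FRI flc-3 was 0.29 (adjusted p = 0.22). Its call was lost without FRI replicate 1 or 2 or flc-3 replicate 1 or 2 (adjusted p from 0.062 to 0.077). These were the 2 members among 51 named probe sets of the UGT family. AT5G57655, a xylose isomerase, had day 5 signals of 76.8, 86.3 and 86.0 on the FRI arrays, 146, 154 and 185 in FRI flc-3 and 155, 147 and 154 in flc-3. It was higher than in FRI by 0.84 (adjusted p = 5.0e-08) and 0.76 (adjusted p = 3.7e-07), after day 3 differences of 0.10 and 0.07 that were not called.

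AT5G09300, which resembles a subunit of the branched-chain keto acid dehydrogenase, was called on both days. Its day 3 signals were 44.8, 34.5 and 39.7 on the FRI arrays, 69.4, 76.1 and 65.7 in FRI flc-3 and 55.0, 56.4 and 58.5 in flc-3. Its day 5 signals were 27.3, 29.7 and 27.2 on the FRI arrays, 89.8, 81.1 and 72.1 in FRI flc-3 and 67.4, 77.5 and 74.7 in flc-3. The day 3 differences were 0.64 (adjusted p = 1.6e-05) and 0.39 (adjusted p = 0.013), and the second was not called without FRI replicate 2 (adjusted p = 0.14) or flc-3 replicate 3 (adjusted p = 0.071). The day 5 differences were 1.14 (adjusted p = 2.6e-11) and 1.02 (adjusted p = 4.0e-10). FRI itself fell from day 3 to day 5 by 0.33 on the log2 scale (-0.33 ± 0.09, adjusted p = 0.016), so the gap at day 5 held a fall in FRI as well as higher signals in the flc-3 lines.

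AT1G70780 was the brightest of the named members with an early difference. Its day 3 signals were 331, 345 and 326 on the FRI arrays, 480, 460 and 454 in FRI flc-3 and 423, 394 and 409 in flc-3, and its day 5 signals were 345, 341 and 344, then 574, 594 and 572, then 614, 649 and 582 in the same order. The 3 lines did not overlap at day 3, and FRI stayed apart at day 5. The differences from FRI were 0.46 (adjusted p = 1.6e-04) and 0.28 (adjusted p = 0.048) at day 3, and 0.73 (adjusted p = 6.4e-09) and 0.81 (adjusted p = 9.9e-10) at day 5. The day 3 call in flc-3 was lost without any 1 of the 6 arrays compared (0.25 to 0.30, adjusted p from 0.076 to 0.18). AT1G60060 had reached 78.7% of its day 7 change at day 5 in FRI flc-3, and flc-3 had reached 64.2%. FRI was higher at day 5 than at day 0 as well, and the day 5 line differences of 0.27 and 0.24 were not called (adjusted p = 0.068 and 0.073).

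Of the transcription factors, BZIP61 had day 5 signals of 3.33, 2.46 and 10.1 on the FRI arrays, 15.4, 16.3 and 10.3 in FRI flc-3 and 24.8, 34.0 and 17.8 in flc-3. It was higher in flc-3 than in FRI by 0.96 (adjusted p = 2.0e-04), and in FRI flc-3 the difference was 0.51 (adjusted p = 0.067), which was called without FRI replicate 3 (0.66, adjusted p = 0.022). AT4G00870, a bHLH factor, had day 5 signals of 0.335, 0.604 and 0.710 on the FRI arrays, 0.874, 3.00 and 0.739 in FRI flc-3 and 23.6, 15.5 and 19.5 in flc-3. The flc-3 line stood apart for AT4G00870, by 1.09 ± 0.08 from FRI (adjusted p = 2.1e-11), whereas FRI flc-3 differed from FRI by 0.08 (adjusted p = 0.67). At day 7 its signals were 30.4, 19.5 and 19.7 in FRI flc-3 and 64.3, 66.6 and 74.4 in flc-3. The gene lies on chromosome 4, as does FRI, and whether its position bears on this difference was not tested.

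Further named members were called at day 5 against FRI in 1 or both comparisons. AT5G59000, a RING-type zinc finger protein, differed by 0.71 in FRI flc-3 (adjusted p = 0.0062) and 0.83 in flc-3 (adjusted p = 0.0012). AT4G14980 differed by 0.96 (adjusted p = 9.5e-06) and 1.00 (adjusted p = 6.2e-06), and AT3G12470 by 0.80 (adjusted p = 0.0028) and 0.68 (adjusted p = 0.0094). AT4G23680, a protein of the polyketide cyclase and lipid transport superfamily, differed by 0.51 (adjusted p = 0.033) and 0.32 (adjusted p = 0.17). The call of AT4G23680 was lost without any 1 of the 6 arrays compared (adjusted p from 0.054 to 0.15). That of AT5G59000 in FRI flc-3 was lost without FRI flc-3 replicate 3 (adjusted p = 0.086), and that of AT3G12470 in flc-3 without FRI replicate 1 (adjusted p = 0.060) or flc-3 replicate 2 (adjusted p = 0.052). AT5G06190 differed by 0.38 (adjusted p = 0.20) and 0.70 (adjusted p = 0.0044). In all, 16 of the 43 members with 1 named gene were called higher in FRI flc-3 than in FRI at day 5, and 25 of them in flc-3, where 3.23% and 6.06% of all probe sets were called higher. Of the same 43, 4 and 3 were called lower, where 4.68% and 6.97% of all probe sets were. The lowest adjusted p among the named members at day 5 was that of AT5G44630 in both comparisons.

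Other members had no called line difference at day 5. AT2G20870, a putative cell wall protein, had day 5 signals of 50.3, 34.0 and 48.2 on the FRI arrays, 44.2, 47.9 and 45.9 in FRI flc-3 and 38.6, 30.3 and 37.5 in flc-3. At day 7 these were 46.1, 31.4 and 46.3 on the FRI arrays, 267, 272 and 238 in FRI flc-3 and 238, 243 and 232 in flc-3. At day 5 FRI overlapped each flc-3 line, while FRI flc-3 lay above flc-3 without overlap (0.27, adjusted p = 0.16). At day 7 both flc-3 lines lay above FRI, as the rule required. Its day 5 differences from FRI were 0.05 (adjusted p = 0.87) and -0.22 (adjusted p = 0.17), and the second was called without FRI replicate 2 (-0.35, adjusted p = 0.033). AT5G22430, of the pollen Ole e 1 and extensin family, had day 5 differences of 0.00 (adjusted p = 1.0) and 0.20 (adjusted p = 0.48). Its signals were 10.1, 15.1 and 6.33 in FRI flc-3 at day 5, and 78.1, 73.9 and 79.1 at day 7. AT3G04960 was alike in course, with day 5 differences of -0.02 (adjusted p = 0.97) and 0.11 (adjusted p = 0.76) and signals of 30.4, 33.3 and 31.8 in FRI flc-3 at day 7. XERICO, a RING-H2 protein of abscisic acid metabolism, had day 5 signals of 99.0, 85.6 and 77.6 on the FRI arrays, 88.1, 95.2 and 82.2 in FRI flc-3 and 90.0, 102 and 112 in flc-3, with differences of 0.02 (adjusted p = 0.96) and 0.18 (adjusted p = 0.18). AT3G13662 had differences of 0.23 (adjusted p = 0.29) and 0.11 (adjusted p = 0.57), and AT1G11270 of -0.27 (adjusted p = 0.61) and -0.14 (adjusted p = 0.75). Without FRI replicate 2, the first difference of AT1G11270 was -0.66 (adjusted p = 0.050). These p-values do not show that the lines were alike at day 5.

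AT4G11190, a dirigent-like protein, ran the other way before day 7. Its day 3 signals were 107, 119 and 115 on the FRI arrays, 78.6, 89.9 and 93.9 in FRI flc-3 and 86.3, 83.6 and 88.2 in flc-3. At day 5 they were 94.9, 107 and 110 on the FRI arrays, 73.2, 70.5 and 82.2 in FRI flc-3 and 73.5, 73.9 and 75.2 in flc-3. Both flc-3 lines lay below FRI without overlap on both days. The differences were -0.33 (adjusted p = 0.012) and -0.34 (adjusted p = 0.0075) at day 3, and -0.39 (adjusted p = 3.0e-04) and -0.41 (adjusted p = 1.8e-04) at day 5. Both day 3 calls were lost without FRI replicate 2 (adjusted p = 0.086 and 0.069). That in FRI flc-3 was also lost without FRI replicate 3 (adjusted p = 0.054) or FRI flc-3 replicate 1 (adjusted p = 0.12). At day 7 the signals were 271, 295 and 278 in FRI flc-3 and 240, 236 and 217 in flc-3, against 94.7, 105 and 109 in FRI.

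AT4G21870, a small protein of the HSP20 type, had signals that ran up and down within the 7 days. Its signals in FRI were 61.2, 46.5 and 49.6 at day 0, 96.3, 107 and 107 at day 3, 109, 96.7 and 110 at day 5, and 56.7, 55.0 and 50.8 at day 7. In FRI flc-3 they were 127, 130 and 139 at day 3, 63.0, 82.3 and 66.5 at day 5, and 227, 226 and 216 at day 7. The fall of FRI flc-3 from day 3 to day 5 was called (-0.78 ± 0.09, adjusted p = 1.0e-06), and at day 5 FRI flc-3 lay below FRI (-0.49, adjusted p = 5.1e-04). In flc-3 the day 5 signals of 104, 103 and 90.8 overlapped those of FRI (difference -0.07, adjusted p = 0.66). In FRI the signals of days 3 and 5 thus lay above those of days 0 and 7 without overlap.

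AT4G21870 was not the only member whose FRI signals moved between day 0 and day 7. At day 5, 19 members exceeded their FRI day 0 mean by 0.3 or more, while 6 did at day 3. These counts use day 0, on which the rule selected, and the share of all probe sets was not counted. The median day 5 minus day 0 change in FRI was 0.10 over the members and 0.01 over all probe sets. In FRI, 11 members rose from day 3 to day 5 and 4 fell, where 2.9% of all probe sets rose and 2.29% fell. Among those that rose were AT5G56980, by 0.73 (adjusted p = 0.0024), and the glycine-rich protein genes AT1G04660, by 0.95 (adjusted p = 0.011), and AT4G30450, by 0.42 (adjusted p = 0.020). AT1G04660 and AT4G30450 were lower in flc-3 than in FRI at day 5, by 0.77 (-0.77, adjusted p = 0.026) and 0.49 (-0.49, adjusted p = 0.0029). AT3G53400 and AT1G78020 also rose in FRI from day 3 to day 5, by 0.26 (adjusted p = 0.021) and 0.28 (adjusted p = 0.025). Together with AT4G11190 and AT4G21870, they were the 4 members called lower in FRI flc-3 than in FRI at day 5, with differences of -0.32 (adjusted p = 0.0025) and -0.31 (adjusted p = 0.0073). AT1G04660 was singled out after its values were seen. Leaving out FRI day 5 replicate 1 lowered the members called in this change of FRI, in either direction, from 15 to 5. With only the arrays compared in the fit it was 3. It was 7 without FRI day 3 replicate 1, 8 without FRI day 3 replicate 2 and 9 without FRI day 5 replicate 3.

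In FRI flc-3, 41 members rose from day 3 to day 5 and 1 fell, where 2.68% of all probe sets rose and 3.01% fell. The median change was 0.31, and 100 members lay above 0. With only the arrays compared in the fit, 24 members rose. In flc-3, 49 members rose, with a median of 0.34, where 4.72% of all probe sets rose. The change from day 3 to day 5 itself was larger in FRI flc-3 than in FRI for 16 members and smaller for 1, where 0.33% of all probe sets had a larger change and 0.892% a smaller one. In flc-3 against FRI it was larger for 24 members and smaller for 3, where the shares of all probe sets were 0.853% and 1.55%. Without FRI day 3 replicate 1, the members called in either direction were 17 in place of 27. In FRI flc-3 against FRI they were 11 in place of 17 without FRI day 5 replicate 2 or FRI flc-3 day 5 replicate 1, and 7 with only the arrays compared in the fit. AT5G44630 showed a difference of changes of 1.23 ± 0.21 in FRI flc-3 (adjusted p = 5.5e-04) and 1.53 in flc-3 (adjusted p = 2.3e-05). For AT5G57655 it was 0.74 (adjusted p = 7.6e-04) and 0.69 (adjusted p = 0.0014).

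The 2 flc-3 lines were also compared with each other. At day 3, 2 members were called lower in FRI flc-3 than in the other mutant line, where 0.321% of all probe sets were called lower. These were 245928_s_at and AT5G57785. At day 5, 2 members were called higher and 8 lower, where 1.32% of all probe sets were called higher and 1.37% lower, and the median difference was -0.11. Without flc-3 day 5 replicate 2, 6 members in place of 10 were called. The 5 named genes of the lower ones were WSD1, AT4G21870, AT4G00870, AT5G57785 and AT3G53400, and AT4G30450 was the named higher one (0.42, adjusted p = 0.033). AT5G57785 had day 5 signals of 130, 143 and 147 in FRI, 128, 133 and 144 in FRI flc-3, while flc-3 had 195 to 217. At day 5 it was higher in flc-3 than in FRI (0.50, adjusted p = 1.7e-04), and FRI flc-3 lay below flc-3 (-0.55, adjusted p = 2.5e-04). The day 5 gap between FRI flc-3 and FRI was not called (-0.05, adjusted p = 0.85). At day 3, however, AT5G57785 was called lower in FRI flc-3, with a difference from FRI of -0.47 (adjusted p = 0.0018). A gap of the same sign was present at day 0 (-0.37), where the arrays of these lines did not overlap.

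Probe sets with no name held the largest changes. The signals of 261375_at at day 3 were 11.2, 11.8 and 12.8 on the FRI arrays, 31.0, 34.5 and 34.8 in FRI flc-3 and 36.6, 38.4 and 32.5 in flc-3. At day 5 they were 15.1, 11.7 and 13.7 on the FRI arrays, 140, 131 and 138 in FRI flc-3 and 185, 171 and 186 in flc-3. Its day 5 differences from FRI were 2.37 ± 0.08 (adjusted p = 6.5e-20) and 2.74 ± 0.08 (adjusted p = 2.1e-21), without overlap on either day. For 247553_at, day 3 signals were 2.63, 13.1 and 3.13 on the FRI arrays, 64.4, 70.9 and 64.1 in FRI flc-3 and 46.9, 53.3 and 46.5 in flc-3, and it had the largest day 5 difference of the members in both comparisons (2.67 and 2.78, adjusted p = 1.0e-14 and 7.1e-15). A later course was seen for 259372_at, with day 3 differences of 0.08 (adjusted p = 0.94) and 0.09 (adjusted p = 0.95) and day 5 differences of 1.05 (adjusted p = 1.7e-06) and 1.41 (adjusted p = 8.7e-09).

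The probe set 245928_s_at, whose suffix marks probes shared by several transcripts, differed in course between the flc-3 lines. The 3 lines did not start level. FRI began highest, with a day 0 mean signal of 173. The mean of flc-3 was lowest at 81.5, and that of FRI flc-3 lay between them at 122. By day 3 the FRI mean had fallen to 63.4 (-1.25 on the log2 scale). The day 3 gaps of this probe set to FRI thus held a fall in FRI. In FRI flc-3 its day 3 signals were 139, 121 and 125, and those of day 5 were 369, 420 and 401. In flc-3 the day 3 signals were 304, 311 and 315 and those of day 5 were 290, 286 and 306, and in FRI they were 60.1, 58.0 and 72.1 and then 90.8, 103 and 127. FRI flc-3 lay below flc-3 at day 3 (-1.18 ± 0.12, adjusted p = 5.0e-07), and the day 5 difference of 0.41 was not called (adjusted p = 0.064). Chosen after its values were seen, 254915_s_at was the member with the lowest day 7 minus day 0 difference in FRI (-0.99), with FRI signals of 94.6, 106 and 98.6 at day 0 and 27.5, 21.2 and 33.9 at day 5. It was dimmer at day 5 than at day 0 in the flc-3 lines too, and at day 7 had signals of 171, 177 and 227 in flc-3 and a mean of 198 in FRI flc-3.

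**Figure D4:**
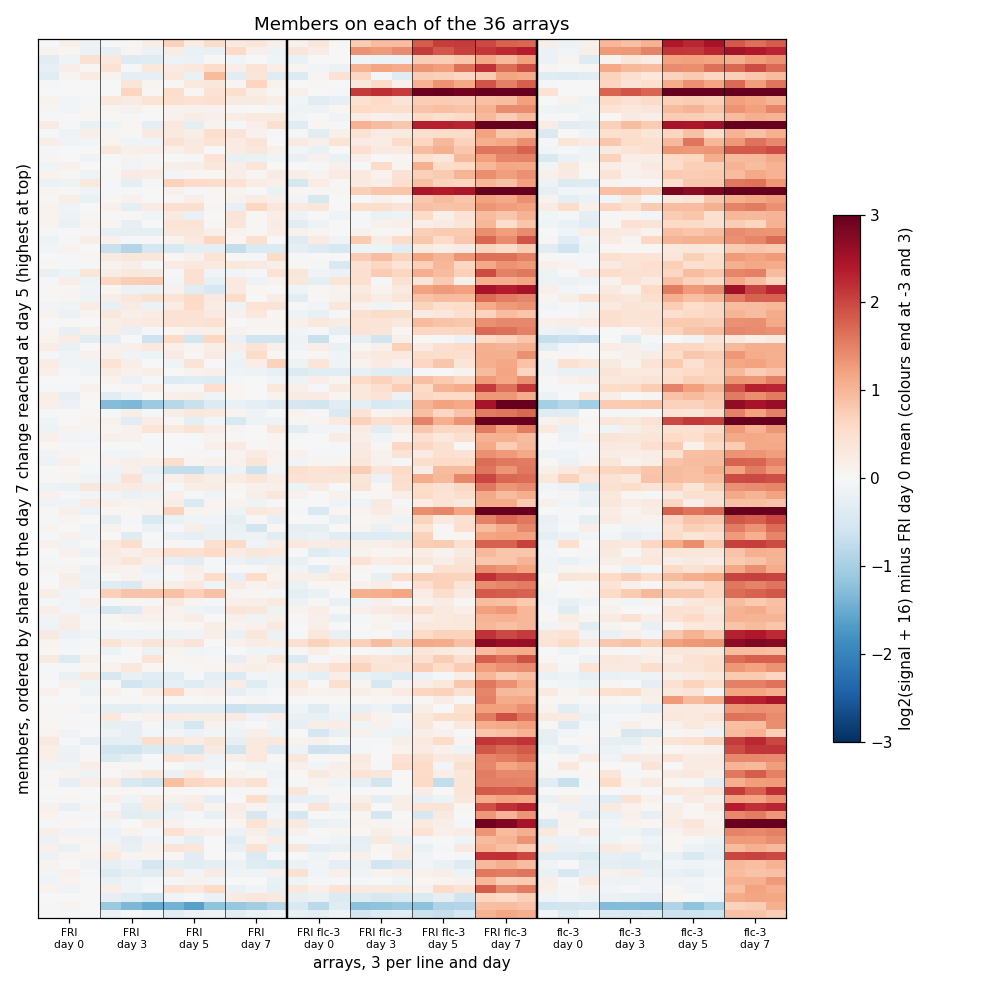
Log2(signal + 16) minus the FRI day 0 mean (colour) for the 107 members (rows, ordered by the share of the day 7 change reached at day 5) on each of the 36 arrays (columns, 3 per line and day). Day 7 is high in both flc-3 lines as the rule required, and at day 5 between 34 (FRI flc-3) and 46 (flc-3) members have reached at least 50% of that change.

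No member was found among the matched floral integrators (6 of 18 fixed), floral repressors (3 of 17), cell cycle genes (4 of 35), gibberellin genes (6 of 27), flavonoid genes (4 of 15) or jasmonate genes and thionins (3 of 13). The list genes without a match could not be placed. Of all 22746 probe sets only 107 were members, so the lack of members in lists this short says little about these gene classes. AGL42, FD and the thionin gene THI2.1 did reach the day 7 threshold in both flc-3 lines. They were no members because FRI rose as well, by 0.94, 0.48 and 3.13. Of the integrators, 4 were called higher in FRI flc-3 than in FRI at day 5 and 3 in flc-3, where 3.23% and 6.06% of all probe sets were. The called integrators included AGL24, a MADS-box promoter of flowering (0.32, adjusted p = 0.028, and 0.43, adjusted p = 0.0019), and FD, the bZIP partner of FT (0.73, adjusted p = 2.5e-05, and 0.90, adjusted p = 1.0e-06). AGL72 (-0.14, adjusted p = 0.49, and -0.07, adjusted p = 0.69) and AGL19 (-0.09, adjusted p = 0.73, and -0.18, adjusted p = 0.23) were not called. All 4 measured flavonoid genes were called lower on day 5 in both comparisons, among them DFR, dihydroflavonol reductase (-1.02, adjusted p = 6.0e-13, and -1.18, adjusted p = 3.4e-14). The repressors SMZ (-0.60, adjusted p = 5.6e-05, and -0.46, adjusted p = 0.0014) and SNZ (-0.34, adjusted p = 0.047, and -0.54, adjusted p = 8.1e-04) were lower too. AGL18, the other matched repressor, was not called (-0.34, adjusted p = 0.057, and -0.17, adjusted p = 0.34). The lowest adjusted p of the 6 gibberellin genes against FRI on either day was 0.074, for the receptor gene GID1C at day 5 in FRI flc-3. Of the 4 cell cycle genes 1 was called higher in FRI flc-3 at day 5, and flc-3 had 3, where 3.23% and 6.06% of all probe sets were called higher.

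Markers of other tissues were matched to named probe sets for few genes, and their part in the members' differences was not tested. Of 18 floral identity genes only UFO, a regulator of floral organs, was matched to a probe set with 1 named gene. The others may be among the probe sets with no name, which include 61 of the members. Its signal ran from 1.81 to 4.37 on the FRI arrays of day 5, 3.41 to 10.5 for FRI flc-3 and 8.78 to 17.0 for flc-3, and at day 7 from 1.21 to 4.57, 13.1 to 20.3 and 24.1 to 25.6. The day 5 difference was called in flc-3 (0.57, adjusted p = 0.0015) and not in FRI flc-3 (0.31, adjusted p = 0.13). The 3 measured photosynthetic genes of 23 (RCA, PRK, LHCB4.1) had summed day 5 signals of 3023 to 3637 in FRI, 3239 to 3678 in FRI flc-3 and 2911 to 3268 in flc-3, and their lowest adjusted p against FRI on either day was 0.061, for RCA at day 5 in flc-3. The vascular sugar transporter SWEET11, 1 of 17 fixed, had day 5 signals of 23.2 to 30.6, 25.6 to 28.8 and 18.5 to 23.6 in the same order, and its lowest adjusted p against FRI was 0.18. That of CLV3 was 0.21 and that of LAS 0.56.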

How the data were processed

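Total RNA of apical regions was measured on 36 one-colour ATH1 arrays, 3 for each of 3 lines on 4 days. The deposited values are signal intensities on a linear scale, made with MAS5 per the submitters' processing notes; its version, target and masking are not given in the sources used here. From these, log2(signal + 16) was computed. The offset of 16 limits the weight of dim values. Control probe sets were left out, and no filter on low values was set. One mean per line and day was fitted over all 36 arrays with limma 3.58.1 in R 4.3.3 (24 residual degrees of freedom, empirical Bayes with an intensity trend, two-sided tests), and p-values were adjusted by Benjamini-Hochberg over 22746 probe sets in each comparison. The fit was tested on simulated data with known changes. Samples were grouped by their labels, and same-numbered replicates were not treated as pairs.

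Probe sets were named through the array annotation and RefSeq's gene table. Of the 107 members, 6 have probes that may bind near-identical copies. The members and gene lists were chosen with earlier results of these data known. The genes named are those of largest mean day 7 change, of largest differences from FRI called in both comparisons at day 5 and at day 3, and of smallest difference at day 5. Added to these are genes called between the flc-3 lines, members of the lists, probe sets next to each threshold, the largest unnamed members, those of largest day 0 difference and those of largest and smallest share at day 3. Alternatives were other offsets, common 75th percentile or quantile scaling, a filter at the 40th percentile, no intensity trend, a fit on only the arrays compared, a replicate block and leaving out each array.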

Additional observations from a re-analysis of the deposited data

Results flagged for a closer look

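The change from day 3 to day 5 differed from that of FRI, by a test of the difference itself (limma, adjusted p under 0.05), for 17 of the 107 members in FRI flc-3 and for 27 in the flc-3 line. Of the 17, 16 had a larger and 1 a smaller change, and of the 27, 24 had a larger and 3 a smaller one. Over all probe sets 1.22% and 2.4% were called. The first count was 7 with only the arrays compared in the fit and 11 without 1 of 2 single arrays, and the second was 17 without FRI day 3 replicate 1. Both comparisons use the same FRI arrays.

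The values below are differences of log2 changes from FRI for the members described above. For FRI flc-3 and then flc-3, they were 1.23 and 1.53 for AT5G44630 and 0.84 and 1.82 for WSD1. They were 0.50 and 0.63 for AT5G09300, and 0.74 and 0.69 for AT5G57655. Of the probe sets with no name, 261375_at had 1.55 and 1.85, 259372_at had 0.97 and 1.31, and 250869_at had 0.70 and 0.97. The probe set 245928_s_at had opposite signs, with 0.89 for the first line and -0.70 for the second. In FRI flc-3, AT4G21870 was called too (-0.81). In the flc-3 line the call also held for AT4G00870 (1.06), AT1G02190 (0.63), AT1G70780 (0.53), 247553_at (1.21) and AT1G04660 (-1.32).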

How the results depend on the processing

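With an offset of 64 the rule gave 43 probe sets, of which 28 were members, and with the 10th percentile (1.62) as offset it gave 153, of which 71 were members. Common 75th percentile scaling gave 102, quantile normalization 111 and the filter 106, and leaving out 1 array gave 102 to 113. Fitting only the arrays compared leaves fewer degrees of freedom. At day 5 this fit lowered the members called from 53 to 40 for FRI flc-3 against FRI and from 69 to 59 for flc-3 against FRI. It lowered the members called from 18 to 9 for FRI flc-3 against FRI and from 17 to 8 for flc-3 against FRI at day 3, from 15 to 3 for day 5 against day 3 in FRI, from 42 to 25 for the same in FRI flc-3, and from 17 to 7 for the difference of these changes. With the 10th percentile offset this last count was 11, and the cause was not tested. Leaving out 1 array gave 12 to 17 and 12 to 15 called at day 3 against FRI, 48 to 53 and 56 to 66 at day 5, and 2 to 3 and 6 to 9 between the flc-3 lines at days 3 and 5. It gave 5 to 14, 35 to 38 and 41 to 49 for day 5 against day 3 in FRI, FRI flc-3 and flc-3, and 11 to 17 and 17 to 26 for the differences of changes. Deviations of same-numbered replicates correlated by -0.12 to 0.11, so the numbers were not taken as pairs. With the replicate block, 18, 16 and 2 members were called at day 3, 54, 71 and 10 at day 5, 15, 43 and 50 between days, and 16 and 27 for the differences of changes. Of the 128 values of named members, 13 lost and 5 gained their call under some alternative, and 0 reversed. In FRI, 67, 67, 58 and 63 members had a mean signal under 22.4 at days 0, 3, 5 and 7, which limits the precision of their log2 differences.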
